A study of Homo sapiens with 36 samples.

Results

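The protein-coding genes that hold and release the sterol regulatory element-binding proteins (SREBPs) were followed in HepG2 cells, a human hepatoma line, under 12 conditions. The members were the rows of the count table with the symbols SREBF1, SREBF2, SCAP, INSIG1, INSIG2, MBTPS1, MBTPS2 and RNF139, which are 8 of 18932 genes. Of these, 7 passed the filter on low counts and were tested. INSIG1 did not pass, and its counts are given below.

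The study supplemented HepG2 cells with docosahexaenoic acid (DHA), propionate (PRO) and protocatechuic acid (PCA), singly or as DHA + PRO and DHA + PCA, and collected RNA after 6 h and 24 h. Doses, per the study's methods, were 50 µM DHA complexed to bovine serum albumin (BSA), 70 µM PRO and 20 µM PCA. Control cells (Ctrl) were given matching amounts of BSA and of the vehicles ethanol and DMSO, and all cells were in serum-free medium. Each of the 12 groups held 3 libraries from separate cell cultures, each made from pooled RNA of replicate wells. The methods name 3 independent cultures and the column headers give each replicate number the same wells in every group, so the number was read as marking a culture, although no source states it outright. Tests were made without a term for the culture, and values with the replicate number as a block are given where the block changed a call. The 3 groups without DHA (Ctrl, PRO and PCA) and the 3 with it (DHA, DHA + PRO and DHA + PCA) give 9 libraries against 9 at each time. HepG2 is a single tumour-derived line, so p-values measure the spread between libraries of that line. With the number read as a culture, the 9 libraries of a set come from 3 cultures. Tests without the block treat these libraries as independent.

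SREBF1 and SREBF2 encode membrane-bound transcription factors of fatty acid and cholesterol synthesis. SCAP escorts them from the endoplasmic reticulum to the Golgi, where the proteases encoded by MBTPS1 (site-1 protease) and MBTPS2 (site-2 protease) release the active fragment. The INSIG proteins hold the SCAP-SREBP complex in the endoplasmic reticulum when sterols are plentiful, and RNF139 (TRC8) is a ubiquitin ligase that binds INSIG. These steps act on proteins, whereas the values here are messenger RNA levels.

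The promoters of the SREBP genes are shown because SREBF1 and SREBF2 are the members whose levels differed with DHA. Promoter windows of 300 bases, from 250 before to 50 after the annotated start, were matched in RefSeq (GRCh38.p14) for 7 of the 8 genes, all but RNF139. Capitals mark matches to the core of the sterol response element (TCACNCCAC) and to the CCAAT box, here inverted as ATTGG, from a search of these letters on both strands.
SREBF2, chr22:41832855-41833154, plus strand: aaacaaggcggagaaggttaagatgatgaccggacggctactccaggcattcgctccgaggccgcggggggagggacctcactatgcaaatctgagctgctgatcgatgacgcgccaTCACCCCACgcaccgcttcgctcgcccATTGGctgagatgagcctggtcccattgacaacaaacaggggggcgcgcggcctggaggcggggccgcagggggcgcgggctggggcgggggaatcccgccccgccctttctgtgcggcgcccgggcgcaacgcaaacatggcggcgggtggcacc
SREBF1, chr17:17836937-17837236, minus strand, no match to either: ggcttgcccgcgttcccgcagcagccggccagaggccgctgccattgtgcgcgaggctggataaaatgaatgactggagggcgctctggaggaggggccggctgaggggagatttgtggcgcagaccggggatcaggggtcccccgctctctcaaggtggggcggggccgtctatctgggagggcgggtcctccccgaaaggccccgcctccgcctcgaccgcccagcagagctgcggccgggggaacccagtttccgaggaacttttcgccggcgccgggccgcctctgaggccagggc
In the SREBF2 window the core matched as TCACCCCAC from -133 to -125, counted from the transcription start, and the inverted CCAAT box lay at -106 to -102. Of 35116 promoter windows of the same length, 1.13% held the core and 34.6% held CCAAT. The SREBF1 window held 3 GC boxes (GGGCGG, in 45.0% of windows) and no match to the core, CCAAT or the E-box CACGTG. Only this window was searched for SREBF1, so the lack of a match does not extend to other starts of the gene. GC boxes were not particular to SREBF1. They also lay in the SREBF2 window, at -23 to -18, -10 to -5 and -5 to 1, and in the windows of SCAP, INSIG1 and INSIG2. The E-box, present in 7.26% of windows, was found at -58 to -53 for SCAP and at -55 to -50 for INSIG1. A match describes the letters of a window and does not show that a factor bound there.

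Each SREBP gene also carries a microRNA on its own strand within its span, annotated in hg19 as MIR33A in SREBF2 and MIR33B in SREBF1. The mature 5′ arms are shown because they come from the same transcription units as the measured genes, with the seed (bases 2 to 8) in capitals.
hsa-miR-33a-5p: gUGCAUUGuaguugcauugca
hsa-miR-33b-5p: gUGCAUUGcuguugcauugc
The seeds were identical, and 18 of the 20 aligned positions matched. Neither microRNA has a row of its own in the count table, and their levels were not measured here.

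At 6 h total counts per library were between 4659744 and 10788964. At 24 h they were between 5617341 and 8657882, apart from DHA + PRO replicate 2 with 42326734. Hepatocyte markers were present in every library, with ALB between 21851 and 31857 CPM (counts scaled to library size). For DHA at 24 h 1 of 9, TF, was called lower, against 0.942% of all genes. With the replicate block 3 of 9 were called lower (TF, APOB and TTR), against 2.13% of all genes. Among 10 markers of other cell types, PTPRC was at 0 in 34 of 36 libraries and KRT7 in 31. EPCAM (153 to 254 CPM), CD68 (32.7 to 71.5 CPM) and ACTA2 (22.3 to 58.9 CPM) were above 0 in every library, and the other 5 were at 0 in 3 to 24 libraries. ACTA2 was higher with DHA at 24 h in the fit with the replicate block, by 0.25 on the log2 scale (edgeR adjusted p = 0.0435). The summed level of the 10 at 24 h was 248 to 281 CPM without DHA and 268 to 302 CPM with it, and its part in the results was not tested. In bulk RNA, fewer cells that express a gene and less RNA per cell cannot be told apart.

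SREBF1 fell with DHA at both times, SREBF2 fell by a smaller amount at 24 h, and the other 5 measured genes gave no call. SREBF1 encodes the SREBP-1 isoforms, which act on genes of fatty acid synthesis. The study describes SREBP-1a as also able to act on genes of cholesterol synthesis. A count per gene does not separate the isoforms. At 6 h the SREBF1 level in replicates 1, 2 and 3 was 84.7, 89.5 and 78.3 CPM in Ctrl, 112, 92.6 and 112 CPM in PRO, and 116, 82.2 and 102 CPM in PCA. With DHA it was 63.9, 58.1 and 63.1 CPM in DHA alone, 54.3, 64.0 and 71.2 CPM in DHA + PRO, and 61.3, 56.8 and 68.5 CPM in DHA + PCA. All 9 libraries with DHA lay below all 9 without it. The median was 63.1 CPM with DHA and 92.6 CPM without.

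At 24 h SREBF1 was higher in every group, and the same separation was seen. Without DHA its level in replicates 1, 2 and 3 was 162, 142 and 156 CPM in Ctrl, 131, 148 and 117.5 CPM in PRO, and 198, 139.8 and 160.0 CPM in PCA. With DHA it was 98.0, 78.0 and 117.0 CPM in DHA alone, 115, 94.5 and 78.6 CPM in DHA + PRO, and 109, 69.3 and 85.6 CPM in DHA + PCA. The highest library with DHA (117.0 CPM) and the lowest without it (117.5 CPM) were close, but the sets did not overlap. Such a gap with DHA lower occurred in 0.101% of genes at 6 h and 0.311% at 24 h.

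The pooled DHA effect is the mean of the differences DHA against Ctrl, DHA + PRO against PRO and DHA + PCA against PCA, tested with edgeR's quasi-likelihood test and Benjamini-Hochberg adjustment over all genes. A gene was called at an adjusted p of at most 0.05 with an average log2 CPM above 0. SREBF1 fell by 0.63 on the log2 scale at 6 h (SE 0.077, adjusted p = 0.000183), a decrease of 36% in level. At 24 h it fell by 0.68 on the log2 scale (SE 0.093, edgeR adjusted p = 7.15e-05). At 6 h this was 1 of 7 measured members called, against 0.202% of all 11872 genes tested. At 24 h 2 of 7 were called, against 1.23% of 11893 genes. With the replicate block the same members were called, against 0.539% of genes at 6 h and 3.09% at 24 h, and the adjusted p for SREBF2 at 24 h was 0.00649 by edgeR. The effect was present in replicate 3 (mean log2 difference -0.51 at 6 h and -0.63 at 24 h) and in replicates 1 and 2 (-0.68 and -0.72). The titles number the libraries of replicate 3 apart from nearly all others, and no source used here says what these numbers stand for. The test of a change in the SREBF1 effect between times gave -0.05 on the log2 scale (95% interval -0.31 to 0.21, edgeR adjusted p = 1.00). That test called 0 of 12046 genes, with 368 at an unadjusted p under 0.05, and 0 members by DESeq2. It called 20 genes and 0 members with the replicate block.

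**Figure D1:**
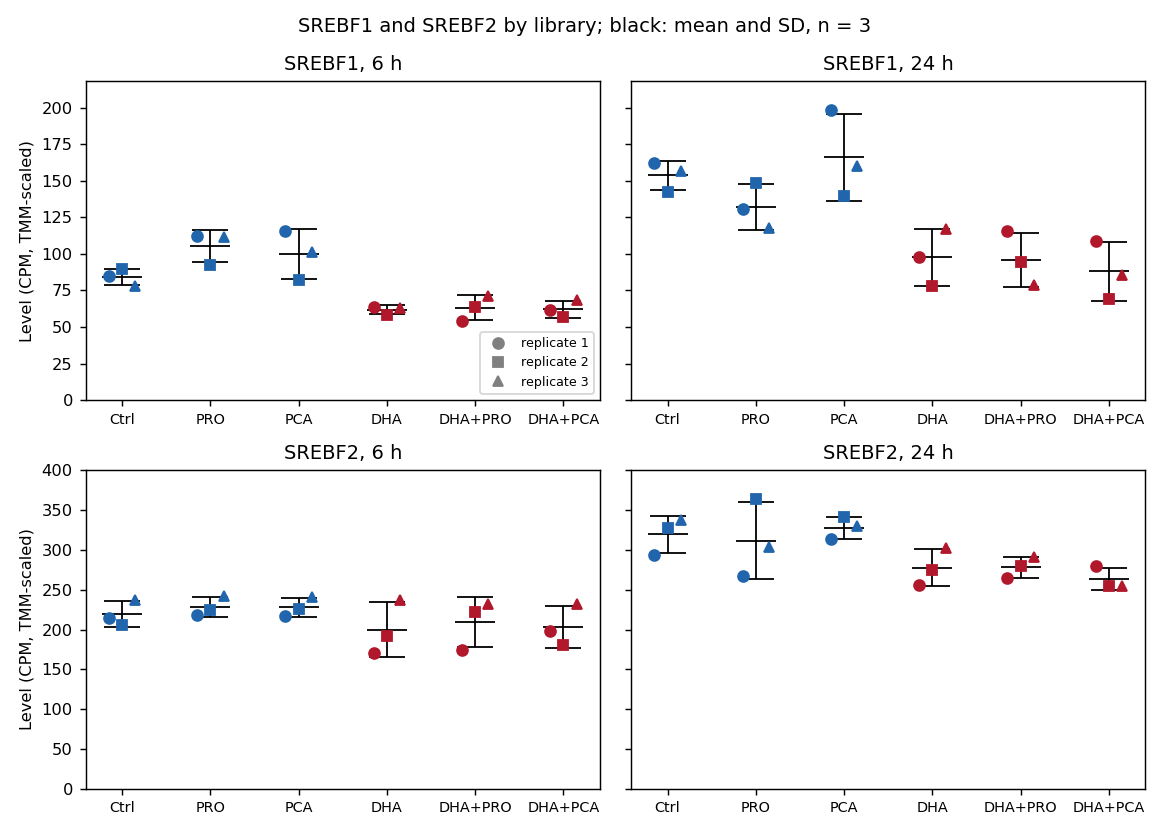
Level of SREBF1 (top) and SREBF2 (bottom) in every library at 6 h and 24 h, in CPM on TMM-scaled library sizes, by treatment; blue is without DHA, red with DHA, symbols give the replicate and black marks the mean and SD (n = 3). For SREBF1 the red points lie below all blue points at each time, while the SREBF2 sets overlap.

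SREBF2, whose product SREBP-2 favours genes of cholesterol synthesis and uptake, was the most abundant of the members in CPM at 24 h. At 24 h its level in replicates 1, 2 and 3 was 294, 328 and 338 CPM in Ctrl, 268, 365 and 303 CPM in PRO, and 314, 341 and 329.7 CPM in PCA. With DHA it was 257, 275 and 303 CPM in DHA alone, 265, 280.1 and 291 CPM in DHA + PRO, and 279.7, 255 and 255 CPM in DHA + PCA. The sets overlapped, with 4 of the 9 DHA libraries below the lowest library without DHA. The pooled effect was a fall by 0.23 on the log2 scale (SE 0.057, edgeR adjusted p = 0.0478), or 14.6%. This call was close to the threshold. It was lost when any of 14 of the 18 libraries was left out, with an adjusted p of up to 0.116, and held without Ctrl replicate 1, DHA replicate 3, PRO replicate 1 or DHA + PCA replicate 1. Without the deepest library, DHA + PRO replicate 2, SREBF2 stood at -0.23 (edgeR adjusted p = 0.0812) and SREBF1 at -0.68 (adjusted p = 0.000302).

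At 6 h SREBF2 ran from 171 to 238 CPM with DHA (median 198) and from 206 to 243 CPM without (median 224). The difference was -0.15 on the log2 scale (95% interval -0.30 to 0.008) and was not called.

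The ratio of SREBF1 to SREBF2 within a library does not depend on scaling between libraries. On RPKM, which is CPM divided by the counted length in kilobases, the median ratio at 6 h was 0.336 with DHA (0.291 to 0.410) and 0.461 without (0.361 to 0.585). At 24 h it was 0.370 with DHA (0.296 to 0.478) and 0.507 without (0.424 to 0.693). The sets overlapped at both times. The mean log2 ratio with DHA minus that without was -0.47 at 6 h (exact two-sided permutation test, 9 against 9, p = 0.000123) and -0.46 at 24 h (p = 0.000740, same exact permutation test), so SREBF1 fell more than SREBF2. That test shuffles libraries across replicate numbers. With libraries paired by replicate number, an exact sign-flip test of the 9 differences gave p = 0.00391 at both times. That is the smallest two-sided p that flips of 9 signs can give. The test treats the 9 differences as independent, although those of the same replicate number share a culture if the number marks one.

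**Figure D2:**
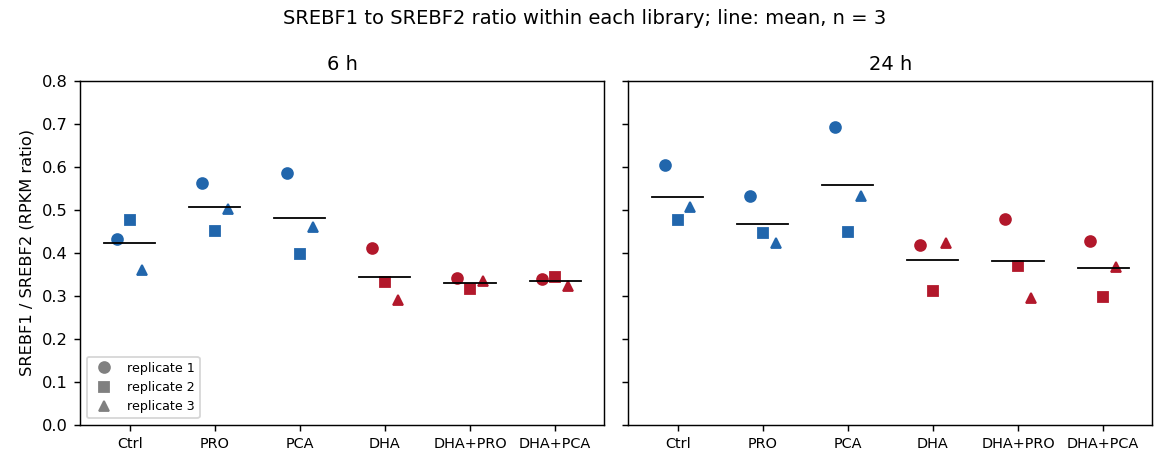
Ratio of SREBF1 to SREBF2 in RPKM within each library at 6 h and 24 h, by treatment; blue is without DHA, red with DHA, symbols give the replicate and lines the mean (n = 3). The DHA groups average 0.331 to 0.344 at 6 h and 0.364 to 0.384 at 24 h.

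Of the genes that escort, anchor and cleave the SREBPs, those tested gave no call with DHA, and the anchor gene INSIG1 was not tested. SCAP, the sterol-sensing escort, ran from 86.4 to 146 CPM with DHA and from 88.1 to 138 CPM without at 6 h. At 24 h its range was 96.1 to 122 CPM with DHA and 88.7 to 128 CPM without. Its pooled difference was 0.11 at 6 h (95% interval -0.10 to 0.33) and -0.03 at 24 h (-0.17 to 0.11) on the log2 scale.

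INSIG2, an anchor of the SCAP-SREBP complex, had a median of 152 CPM with DHA and 175 CPM without at 6 h, and of 115 and 136 CPM at 24 h. The ranges overlapped at both times. The pooled log2 difference was -0.08 at 6 h (95% interval -0.32 to 0.16) and -0.14 at 24 h (-0.29 to -0.004). The 24 h interval excluded 0, but the adjusted p was 0.485 by edgeR.

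MBTPS1, the site-1 protease gene, varied least, from 139 to 198 CPM over all 36 libraries. Its pooled log2 difference was 0.003 at 6 h (95% interval -0.10 to 0.10) and -0.02 at 24 h (-0.12 to 0.09). MBTPS2, the site-2 protease gene, was the lowest of the tested members at 21.8 to 42.4 CPM, with -0.02 at 6 h (-0.28 to 0.24) and -0.14 at 24 h (-0.30 to 0.03). RNF139 ran from 39.1 to 70.7 CPM, with 0.04 at 6 h (-0.11 to 0.19) and -0.09 at 24 h (-0.23 to 0.04). These intervals bound the differences and do not show that the genes were unaffected.

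INSIG1, the other anchor and itself a gene that SREBPs can induce, had 3 reads in all 36 libraries. Ctrl replicate 3 at 6 h held 2 of them and PCA replicate 3 at 24 h held 1, and the other 34 libraries were at 0. A count of 3 corresponds to 0.0709 to 0.644 CPM depending on the library. No level or fold is given for INSIG1, and the cause of these low counts was not tested.

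**Figure D3:**
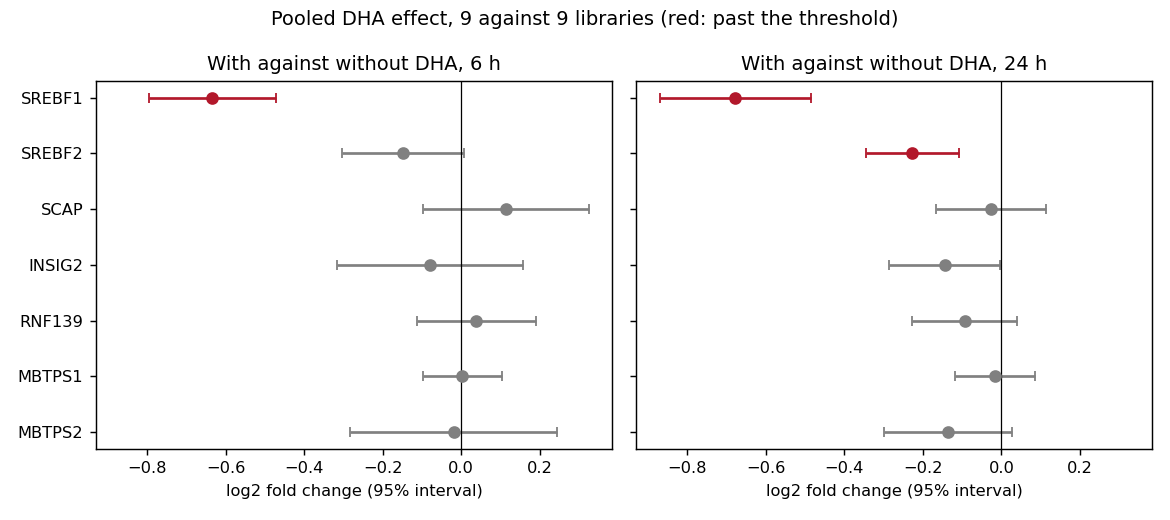
Pooled DHA effect on each of the 7 tested genes as log2 fold change with its 95% interval (edgeR, 9 libraries against 9) at 6 h and 24 h; red marks genes past the threshold. SREBF1 stands at -0.63 and -0.68, SREBF2 at -0.15 and -0.23, and the other 5 lie between -0.14 and 0.11.

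The comparisons with Ctrl asked what each supplement did alone or combined, and they share the same Ctrl libraries. At 24 h SREBF1 differed from Ctrl by -0.65 with DHA (edgeR adjusted p = 0.145), by -0.68 with DHA + PRO (adjusted p = 0.0614) and by -0.81 with DHA + PCA (SE 0.16, adjusted p = 0.0226). Only the last was called, and the counts were 0, 0 and 1 of 7 members against 0.193%, 0.395% and 0.286% of genes. At an unadjusted p under 0.05 there were 2, 3 and 2 members, against 708, 952 and 887 of all 11893 genes. DESeq2's Wald test called SREBF1 in each of the 3 comparisons, and the share of all genes it called is not given here. With the replicate block SREBF1 was also called with DHA, where it fell by 0.66 (SE 0.13, edgeR adjusted p = 0.0134), and with DHA + PRO, where it fell by 0.68 (SE 0.13, adjusted p = 0.00569). Each was 1 of 7 members, against 0.647% and 1.14% of genes. Without the block, the DHA + PCA call was lost without Ctrl replicate 1, 2 or 3 or without DHA + PCA replicate 2 or 3. At 6 h the SREBF1 differences were -0.46, -0.44 and -0.44 in the same order. None was called by edgeR, with or without the block, or by DESeq2, against 0.0168% of genes in each, with SREBF1 as the 1 member at an unadjusted p under 0.05. Over all 11872 genes 337, 264 and 374 were under that value.

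The other arms of the pooled effect compare DHA within PRO and within PCA. With PRO present, DHA moved SREBF1 by -0.76 at 6 h (edgeR adjusted p = 0.0834) and by -0.46 at 24 h (adjusted p = 0.380). These arms called 0 of 7 members, against 0.00842% and 0.227% of genes, with 1 and 2 members at an unadjusted p under 0.05. Over all genes 174 of 11872 and 1142 of 11893 were under that value. With PCA present, the SREBF1 difference was -0.69 at 6 h (edgeR adjusted p = 0.110), and 0 of 7 members were called against 0.0253% of genes. At 24 h SREBF1 fell by 0.92 with PCA present (SE 0.16, edgeR adjusted p = 0.00724), as 1 of 7 called against 0.277% of genes. The difference in SREBF1 response with PRO against without it was -0.30 at 6 h (95% interval -0.70 to 0.09) and 0.20 at 24 h (-0.27 to 0.67). For PCA it was -0.23 (-0.63 to 0.16) and -0.27 (-0.74 to 0.21), and none of these was called. SREBF1 was called with the replicate block in both arms at 6 h, where it fell by 0.76 with PRO present (SE 0.12, edgeR adjusted p = 0.00386) and by 0.68 with PCA present (SE 0.12, adjusted p = 0.00751). It was then 1 of 7 members in each, against 0.0842% and 0.101% of genes. Within replicate numbers SREBF1 was lower with DHA in 9 of 9 pairs at each time. That count follows from the lack of overlap between the sets with and without DHA, and it is no further test.

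PRO and PCA alone gave no called member at either time with edgeR or DESeq2. SREBF1 with PRO differed from Ctrl by 0.32 at 6 h (95% interval 0.05 to 0.60, unadjusted p = 0.0245 and adjusted p = 1.00 by edgeR) and by -0.22 at 24 h (-0.55 to 0.10). With PCA it differed by 0.25 at 6 h (-0.03 to 0.52) and by 0.12 at 24 h (-0.21 to 0.44). INSIG2 with PCA at 24 h stood at -0.27 (-0.52 to -0.03), with an unadjusted p of 0.0313 and an adjusted p of 0.991 by edgeR. Over all genes the same test called 0 for each of these 4 comparisons, with 196, 86, 716 and 454 genes at an unadjusted p under 0.05 for PRO and PCA at 6 h and PRO and PCA at 24 h.

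Adding PRO or PCA to DHA was compared directly with DHA alone. SREBF1 differed by 0.02 (95% interval -0.26 to 0.30) with PRO and by 0.02 (-0.27 to 0.30) with PCA at 6 h. At 24 h the differences were -0.03 (-0.36 to 0.31) and -0.15 (-0.49 to 0.19). For SREBF2 the 4 differences lay between -0.08 and 0.06. No member was called by edgeR or DESeq2 and 0 members had an unadjusted p under 0.05. Over all genes edgeR also called 0 in each of these 4 comparisons. At an unadjusted p under 0.05 there were 168 genes with PRO and 151 with PCA at 6 h, and 527 and 276 at 24 h.

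Levels per length place the members on 1 scale. In Ctrl at 6 h INSIG2 was highest at 73.5 ± 10.4 RPKM (SD, n = 3), followed by MBTPS1 at 42.1 ± 2.91, SREBF2 at 41.6 ± 3.10, SCAP at 25.9 ± 5.19, RNF139 at 17.98 ± 1.90, SREBF1 at 17.5 ± 1.17 and MBTPS2 at 6.62 ± 1.60. The neighbours MBTPS1 and SREBF2 overlapped, as did RNF139 and SREBF1. At 24 h the order in Ctrl was SREBF2 at 60.7 ± 4.35 RPKM, INSIG2 at 53.9 ± 2.10, MBTPS1 at 35.1 ± 2.99, SREBF1 at 31.97 ± 2.12, SCAP at 26.2 ± 3.09, RNF139 at 16.7 ± 2.30 and MBTPS2 at 7.16 ± 0.805. Here SREBF2 overlapped INSIG2, and MBTPS1 overlapped SREBF1.

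The SREBP genes rose between 6 h and 24 h while an anchor and a protease gene fell. In Ctrl, SREBF1 rose by 0.87 on the log2 scale (SE 0.16, edgeR adjusted p = 9.33e-05) and SREBF2 by 0.55 (SE 0.12, adjusted p = 0.000676). INSIG2 fell by 0.45 (SE 0.17, edgeR adjusted p = 0.0491) and MBTPS1 fell by 0.26 (SE 0.080, adjusted p = 0.0150). These are 4 of 7 members called, against 26% of 12046 genes, and the count fell to 2 (SREBF1 and SREBF2) without Ctrl replicate 3 at 6 h or without Ctrl replicate 1 at 24 h. SCAP (0.03, 95% interval -0.29 to 0.34), MBTPS2 (0.13, -0.25 to 0.51) and RNF139 (-0.10, -0.34 to 0.14) were not called.

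The same directions were seen in the other treatments. SREBF1 and SREBF2 were higher in all 3 libraries at 24 h than in all 3 at 6 h in each of the 6 treatments, a pattern found for 5.74% of genes. INSIG2 and MBTPS1 were lower without overlap in each of the 6 treatments, as were 3.93% of genes. By edgeR, 3 of 7 members were called with DHA (19.4% of genes), 1 with PRO (14.1%), 3 with PCA (27.5%), 5 with DHA + PRO (20.3%) and 4 with DHA + PCA (18.7%). SREBF2 was called in all 6 treatments, and SREBF1 and INSIG2 in all but PRO, where they stood at 0.33 (adjusted p = 0.170) and -0.33 (adjusted p = 0.204) by edgeR. RNF139 fell by 0.42 with DHA + PRO (edgeR adjusted p = 0.0104) and by 0.39 with DHA + PCA (adjusted p = 0.0190). With the replicate block 4 members were called with DHA (29.1% of genes), 2 with PRO (24%), 4 with PCA (38.7%) and 6 with DHA + PCA (28.7%). The added calls were falls of MBTPS1 with DHA (by 0.21) and DHA + PCA (by 0.20), of INSIG2 with PRO (by 0.33), of RNF139 with PCA (by 0.31) and of SCAP with DHA + PCA (by 0.28), with edgeR adjusted p between 0.0111 and 0.0489. Time in culture and time in serum-free medium cannot be told apart in this design.

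**Figure D4:**
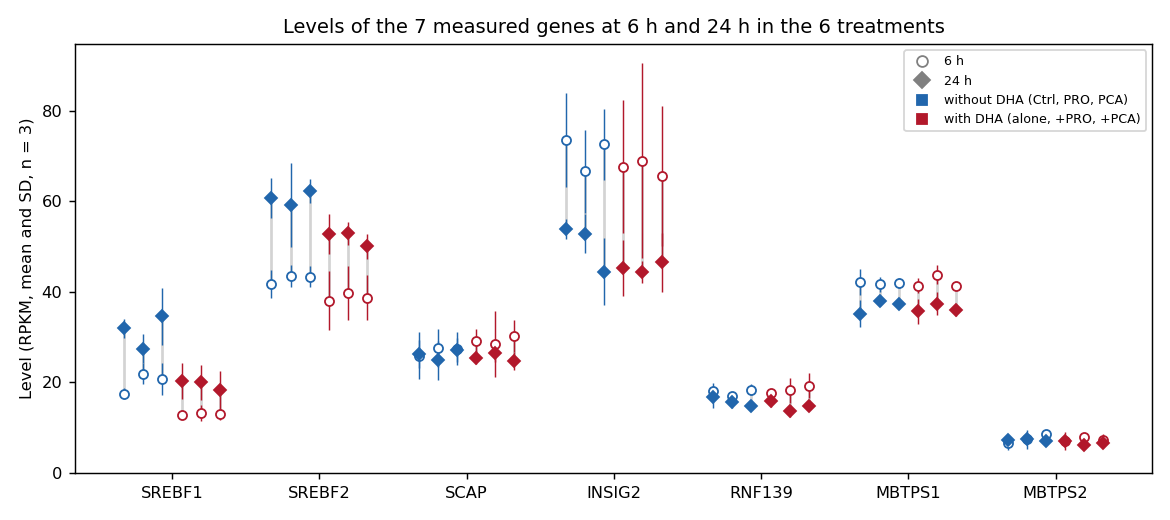
Mean level in RPKM with SD (n = 3) of the 7 measured genes in the 6 treatments, in the order Ctrl, PRO, PCA, DHA, DHA + PRO and DHA + PCA within each gene; open circles are 6 h, filled diamonds 24 h, blue without DHA and red with DHA. SREBF1 and SREBF2 sit higher at 24 h and INSIG2 and MBTPS1 lower in all 6 treatments.

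Genes around the pathway were counted by role for the pooled DHA effect. Of 15 genes for export of the SCAP-SREBP complex, 16 for degradation at the endoplasmic reticulum and 12 for transcription of the SREBP genes, 0 were called at 6 h and 0 at 24 h by edgeR. The shares over all genes were 0.202% and 1.23%. At an unadjusted p under 0.05 there were 0, 0 and 0 at 6 h and 4, 2 and 0 at 24 h. Over all genes 342 of 11872 and 1175 of 11893 were under that value. Within these lists, C12orf49 (SPRING1), which assists site-1 protease, stood at 0.03 at 24 h and the oxysterol receptor NR1H3 (LXR alpha), a known activator of SREBF1, at -0.10. With the replicate block 0 were called at 6 h and 2 at 24 h, against 0.539% and 3.09% of all genes. At 24 h SEC24D, a cargo adaptor of COPII vesicles, fell by 0.23 (edgeR adjusted p = 0.0156). SYVN1, a ubiquitin ligase of the endoplasmic reticulum, fell by 0.22 (edgeR adjusted p = 0.0163). Of 16 genes for turnover and cofactors of nuclear SREBP, LPIN1 fell by 0.55 at 24 h (SE 0.067, edgeR adjusted p = 1.48e-05) and the other 15 were not called. At 6 h LPIN1 stood at -0.39 (edgeR adjusted p = 0.0506), just short of a call, and it was called with the replicate block (adjusted p = 0.00204). LPIN1 encodes a phosphatidate phosphatase that also acts on nuclear SREBP.

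Enzymes and other targets of the SREBPs fell in larger number. Of 29, 10 fell at 6 h and 27 at 24 h, against 0.152% and 0.942% of all genes lower, with a median log2 difference of -0.29 and -0.48 and medians of 0.0003 and 0.007 over all genes. With the replicate block 21 fell at 6 h and 28 at 24 h, against 0.371% and 2.13% of all genes lower. HMGCS1, which makes HMG-CoA for sterol synthesis, fell by 0.81 at 6 h and 0.72 at 24 h. FASN, the fatty acid synthase, stood at -0.26 at 6 h without a call and fell by 0.66 at 24 h, and STARD4, a sterol carrier, fell by 0.64 and 0.40. Of 8 LXR target genes tested, 0 were called at 6 h by edgeR and 0 had an unadjusted p under 0.05. At 24 h 2 fell (MYLIP by 0.59 and SMPDL3A by 0.44), against 0.942% of all genes lower. With the replicate block 3 fell at 24 h (also LPCAT3, by 0.20), against 2.13% of all genes lower.

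**Figure D5:**
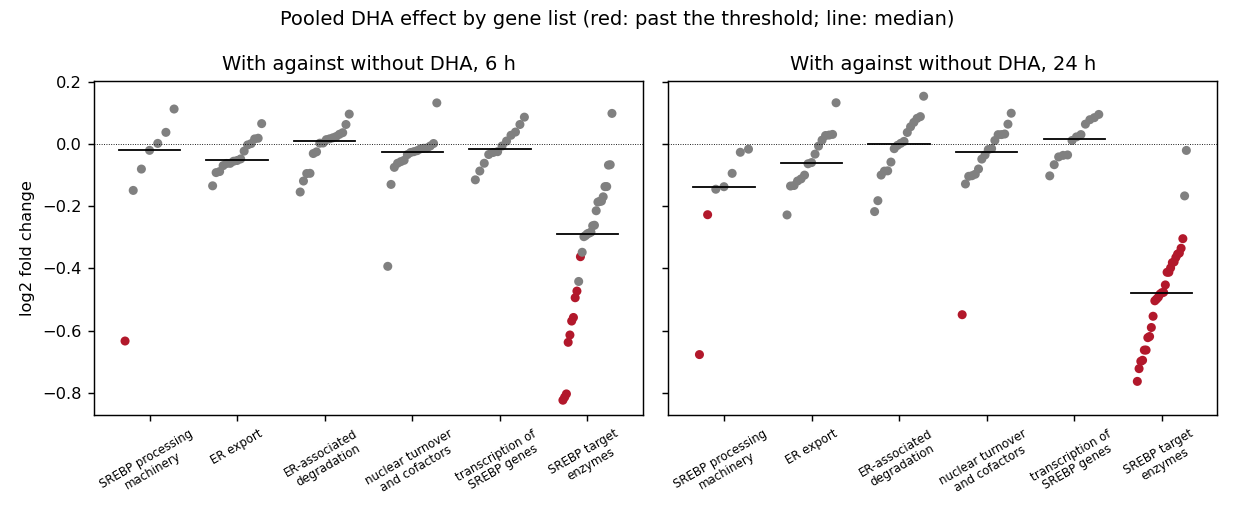
Pooled DHA effect (log2 fold change, edgeR) of single genes by list at 6 h and 24 h; points are genes, red marks those past the threshold and lines mark list medians. The medians of the target enzymes are -0.29 and -0.48, and 27 of 29 of these genes are red at 24 h.

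Likeness over libraries was described by Pearson's r of log2 CPM over 36 libraries after centring within each time, among 10622 genes. All points share library and depth, and DHA moved many of these genes. For SREBF1 the most similar of the genes reported were FASN (r = 0.87), which encodes fatty acid synthase, MID1IP1 (0.86), a regulator of acetyl-CoA carboxylase, and MVK (0.84), a mevalonate pathway kinase. For SREBF2 they were LSS (0.85), a cholesterol synthesis enzyme, NPC1L1 (0.84), a cholesterol transporter, and BAZ2A (0.84). Among the members, SREBF1 and SREBF2 had r = 0.64, SREBF2 and SCAP 0.53, INSIG2 and RNF139 0.55, and SCAP and INSIG2 -0.58. The centring left differences between replicate numbers in place. At 6 h INSIG2 was highest in replicate 1 in every treatment, at 199 to 242 CPM against 141 to 178 CPM in the other replicates. SCAP at 6 h was highest in replicate 3 in every treatment but DHA + PRO. The part of these differences in the r values was not tested.

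Positions in hg19, the build of the count table, bear on how reads were assigned. SREBF1 (chr17:17714663-17740325, minus strand) overlaps RAI1 on the opposite strand by 105 bases at its 3′ end, and SREBF2 (chr22:42229083-42303312, plus strand) overlaps SREBF2-AS1 by 1587 bases. RNF139 (chr8:125487008-125500859, plus strand) overlaps TATDN1 by 134 bases on the opposite strand, and YY2 lies within MBTPS2 (chrX:21857656-21903541) on the same strand. The library kit does not mark strand, so reads in these stretches cannot be told apart.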

How the data were processed

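RNA-seq of 36 HepG2 libraries was used (12 groups, n = 3). Per the study's methods, the authors pooled RNA of replicate wells per culture, prepared libraries with the TruSeq v2 kit, aligned reads to hg19 with STAR and ran iRNA-seq. The table deposited by the authors holds raw read counts per RefSeq gene with no normalization. The deposited counted length of each gene, in another unit (base pairs), was used only for RPKM. Labels gave the groups, and all samples were kept. Replicate numbers were read as pairing libraries by culture, from the methods and column headers. After removal of group means, 36 of 45 same-numbered pairs at 6 h and 34 of 45 at 24 h correlated above 0.1, and 16 of 18 and 17 of 18 libraries correlated best with their own number. The main fits have no block, and blocked fits of the gene lists, of DHA within PRO and PCA, and of time within treatments were chosen after seeing the data. No library was a copy of another (chi-square per degree of freedom at least 1.93).

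Counts were tested with edgeR 4.0.16 in R 4.3.3 (filterByExpr, TMM, quasi-likelihood test, Benjamini-Hochberg over all genes), in 1 fit per time (18 libraries) and a joint fit of 36 for differences between times. SE is the log2 difference divided by the square root of F. The fits were tested on simulated data. CPM and RPKM use TMM-scaled library sizes of all 36 libraries. Ratios were compared by exact permutation in scipy 1.17.1. DESeq2 1.42.0, other scalings, no filter, blocks and leave-one-out were alternatives. Intervals are 95%.

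The members and gene lists were chosen with earlier results of these data known. Named genes were the 8 members, called genes of the export, degradation, nuclear and transcription lists, C12orf49, NR1H3, HMGCS1, FASN and STARD4, and the 3 genes most like SREBF1 and SREBF2. Some genes that these rules name are not reported here. RAI1, SREBF2-AS1, TATDN1 and YY2 were named for position, and MYLIP, SMPDL3A and LPCAT3 after their values were seen. Depth ran from 4659744 to 42326734 counts, and without molecular identifiers counts are reads.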

Additional observations from a re-analysis of the deposited data

Results flagged for a closer look

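MBTPS1 at 24 h was lower in Ctrl replicate 1 (138.771 CPM) than in the other 8 libraries without DHA, the nearest of which was at 159.57 CPM and the highest at 169.377 CPM. The gap to the nearest library exceeded Dixon's 95% critical value for 9 samples. It was the only such case among 28 sets of 9 libraries, and chance flags about 1 set in 20.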

How the results depend on the processing

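SREBF1 stayed past the threshold for the pooled DHA effect under every alternative run, between -0.67 and -0.59 at 6 h, and between -0.74 and -0.63 at 24 h. The count of called members for pooled DHA at 24 h ranged from 1 to 2 over the leave-one-out fits, where SREBF2 ran from -0.26 to -0.18. Ctrl 24 h against 6 h ranged from 2 to 4, DHA + PCA against Ctrl at 24 h from 0 to 1 and DHA + PRO against Ctrl at 24 h from 0 to 1 over the same fits. At 24 h SREBF1 became 1 called member for DHA against Ctrl and for DHA + PRO against Ctrl with no filter on low counts, with the replicate block, with DESeq2's Wald test and with only the groups compared, and for DHA + PRO also with the library series block. Apart from the replicate block, the share of all genes called under these settings is not given here. These added calls therefore cannot be set against the genes as a whole. The replicate block also added SREBF1 as 1 called member for DHA + PRO against PRO and for DHA + PCA against PCA at 6 h, and members to 4 of the 6 comparisons of 24 h with 6 h. It removed no call of a member and changed no other count of called members. Signs of uncalled values near 0 turned on leaving out single libraries. At 6 h MBTPS1 spanned -0.0115 to 0.0188, MBTPS2 -0.0844 to 0.0560 and RNF139 -0.00268 to 0.0712. At 24 h MBTPS1 spanned -0.0385 to 0.00300 and SCAP -0.0659 to 0.0210. MBTPS1 at 6 h was -0.000912 with the library series block. The cause of these changes was not tested. The pooled effect uses all groups, so no fit of only the groups compared was run for it, and the ratio of INSIG1 to INSIG2 and genes like INSIG1 could not be computed from 3 reads. Depth limits the precision for MBTPS2, whose counts were as low as 145.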
